A study of Mus musculus with 96 samples.

Results

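The genes described here are 9 genes of retinoid (vitamin A) metabolism in mouse: Cyp26a1, Aldh1a1, Aldh1a2, Rbp4, Lrat, Rdh11, Rdh16, Retsat and Rarb. All 9 were among the 21990 genes of the deposited table, of which 20155 carried values. They were chosen by name around Cyp26a1, which had been noted for a repeated diet response in the liver of these same mice, so its liver values are given as a description without a test. Male C57BL/6N mice, bought at 4 weeks of age, were kept on a chow diet (CD, 13.5% fat) or a high-fat diet (HFD, 60% fat), and pancreatic islets and liver were taken from 4 mice of each diet after 4, 8, 12, 16, 20 and 24 weeks. This gave 48 mice and 96 libraries, an islet and a liver library of each mouse. Islets were freed with collagenase and picked by hand, and liver was sampled from a fixed region. The diets also differed in protein, carbohydrate, minerals and vitamins, so that fat and the other ingredients cannot be told apart.

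Retinol reaches the liver from the gut, is esterified and stored mainly in hepatic stellate cells, and leaves hepatocytes bound to a carrier protein. In cells it is oxidised to retinal and then to retinoic acid, which binds nuclear receptors and switches on genes through direct repeats of a short hexamer. Among the genes that retinoic acid switches on is the enzyme that removes it, so the level of that enzyme is widely read as a sign of retinoic acid activity.

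By role, Rbp4 encodes the plasma carrier of retinol and Lrat the enzyme that esterifies it. Rdh16 and Rdh11 encode short-chain retinol and retinal oxidoreductases, and Retsat encodes retinol saturase, which converts retinol to dihydroretinol. Aldh1a1 and Aldh1a2 encode retinal dehydrogenases that make retinoic acid, Cyp26a1 the cytochrome P450 that hydroxylates it for removal, and Rarb the beta form of the retinoic acid receptor. Levels are in FPKM, a fragment count scaled by transcript length and library size. A difference between diets is HFD minus CD on the log2(FPKM + 1) scale, which understates the change of low genes. A gene was called at an adjusted p under 0.05 across all genes tested.

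Of the 9 genes, Cyp26a1 and Rarb are the ones whose promoter window in RefSeq (GRCm38.p6, 250 bases before to 50 after a transcript start) held a direct repeat of the receptor hexamer. The hexamer AGGTCA was searched for on both strands along with its variants, namely AGTTCA, the variant GGGTCA and, last, the variant GGTTCA, in either position and with 1, 2 or 5 bases between the hexamers. The 2 stretches are shown because both repeats had the 5-base spacing, which is the least frequent of the 3 among promoters. Capitals mark the hexamers, and each sequence reads 5′ to 3′ along the strand of its gene.
Cyp26a1, chr19:37697736-37697807, plus strand: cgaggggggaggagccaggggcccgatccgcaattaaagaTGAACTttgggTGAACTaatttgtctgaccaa
Rarb, chr14:16575477-16575569, minus strand: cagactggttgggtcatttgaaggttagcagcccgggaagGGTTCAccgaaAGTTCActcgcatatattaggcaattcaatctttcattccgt
In Cyp26a1 the repeat lay on the strand opposite to the gene, from position -32 to -16 relative to the transcript start used. In Rarb it lay on the strand of the gene from -53 to -37. Both stretches lie within the gene spans given in the deposited data, chr19:37697732-37701536 for Cyp26a1 and chr14:16430839-17082331 for Rarb. The starts used are thus not the outermost ones of these genes. Of 32851 promoter windows, 0.0974% held a repeat of these hexamers with 5-base spacing, 0.222% with 1-base spacing and 0.268% with 2-base spacing. The windows of the other 7 genes had no match to these letters. A match is a description of the sequence and was not measured as a bound site.

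The labelled tissues carried their own transcripts. Albumin had a median of 32851 FPKM in liver, and the 2 insulin genes together made up 53.7 to 70.8% of the summed FPKM of CD islets and 62.6 to 75.1% of HFD islets. Insulin transcripts also made up 0.556% and 0.382% of the liver libraries of mice CD306 and CD407, against at most 0.0634% in the others. The sum of FPKM over genes ran from 560016 to 672369 in liver. Tissues are mixtures, so fewer cells of a type and less RNA per cell cannot be told apart in any value below.

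Cyp26a1 (Entrez 13082, chr19:37697732-37701536, GRCm38) was lower in the liver of HFD mice at each of the 6 weeks. At week 4 the CD livers had 5.91, 4.07, 5.33 and 2.82 FPKM and the HFD livers 0.96, 0.83, 2.16 and 1.02 FPKM. At week 8 the CD livers had 9.39, 61.26, 15.01 and 17.46 FPKM and the HFD livers 2.45, 0.49, 1.06 and 0.92 FPKM. At week 12 the CD livers had 12.21, 9.04, 4.03 and 8.18 FPKM and the HFD livers 1.62, 1.77, 1.5 and 0.54 FPKM. In these 3 weeks the lowest CD liver lay above the highest HFD liver of its own week, and the CD liver of week 8 at 61.26 FPKM, from mouse CD205, was the highest of all. At week 16 the CD livers had 5.14, 7.5, 10.39 and 5.31 FPKM and the HFD livers 0.68, 0.71, 0.58 and 1.84 FPKM. At week 20 the CD livers had 9.4, 12.46, 9.35 and 16.77 FPKM and the HFD livers 0.67, 1.76, 0.47 and 1.66 FPKM. At week 24 the CD livers had 6.48, 2.48, 3.9 and 11.97 FPKM and the HFD livers 0.35, 0.27, 0.36 and 0.5 FPKM. The groups were separate in these weeks too, and the lowest HFD value of all, 0.27 FPKM, was at week 24.

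Across all weeks the 24 CD livers ran from 2.48 to 61.3 FPKM with a median of 8.61, and the 24 HFD livers from 0.27 to 2.45 FPKM with a median of 0.875. The highest HFD value thus lay just under the lowest CD value, even between different weeks. Among 10879 liver genes tested, 0.00919% (1 gene, Cyp26a1) had all HFD livers below all CD livers of every week. The share with every HFD mouse below every CD mouse within each of the 6 weeks was 0.0276%, which was 3 genes, namely Cyp26a1, Cyp2c29 and Kcp. Cyp26a1 was chosen on this contrast, and nothing is read from those shares.

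As a ratio of mean FPKM, the CD level of Cyp26a1 was 3.65-fold the HFD level at week 4 (4.53 ± 1.38 against 1.24 ± 0.617, SD, n = 4 each). The ratio was 21.0-fold at week 8, where the CD mean was 25.8 ± 23.9 FPKM, and without mouse CD205 it was 11.3-fold with a CD mean of 14.0 ± 4.14 FPKM. It was 6.16-fold at week 12, 7.44-fold at week 16, 10.5-fold at week 20 and 16.8-fold at week 24, where the HFD mean was 0.37 ± 0.0956 FPKM. The week 8 ratio was the largest of the 6 with CD205 included, and lay below that of week 24 without it. The 6-week mean difference was -2.24 on the log2(FPKM + 1) scale and -3.05 with a pseudocount of 0.1. In islets Cyp26a1 ran from 0 to 0.06 FPKM and was listed at 0 in 23 of 48 libraries, so the diets were not compared there.

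**Figure D1:**
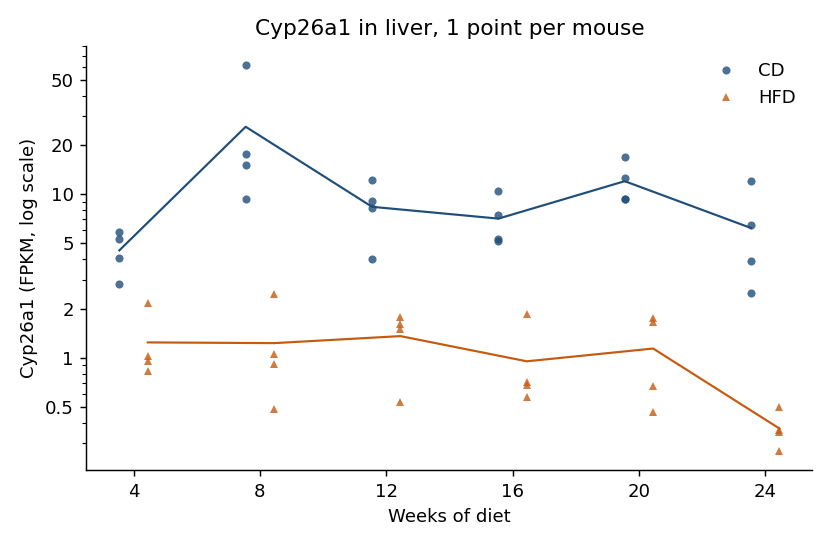
Cyp26a1 in liver by weeks of diet, in FPKM on a log axis, with 1 point per mouse (circles CD, triangles HFD) and lines through the mean FPKM of each group of 4 mice. The CD livers, from 2.48 to 61.3 FPKM, all sit above the HFD livers, from 0.27 to 2.45 FPKM.

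Among the other retinoid enzymes, Aldh1a1, Rdh16 and Retsat rose in HFD liver at week 8. At that week 3 of the 6 members tested were called, against a background of 7.49% of all genes. Limma called none of 6 at week 4 (background 0.0506%), week 12 (10.6%) and week 24 (0.837%), with 2 of 6 at an unadjusted p under 0.05 each time. At week 16 and at week 20, 1 of 7 was called, against 7.43% and 2.47% of all genes. In the mean over 6 weeks 5 of 7 were called, 4 higher and 1 lower, against 42.6% of all genes, whose median difference was 0.08. With libraries scaled by the median of gene ratios in place of FPKM as deposited, 2 were higher and 1 lower in that mean.

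Aldh1a1 (Entrez 11668, chr19:20492662-20643462) was an abundant liver transcript, from 331 to 1162 FPKM over the 48 livers. At week 8 the CD livers had 449.1, 620.47, 423.95 and 433.49 FPKM and the HFD livers 1069.55, 1156.91, 1141.59 and 897.51 FPKM. The HFD livers were all above the CD livers, with means of 1066 ± 119 and 482 ± 93.1 FPKM (SD, n = 4 each), a 2.21-fold difference (log2 1.16, SE 0.14, adjusted p = 0.00368). At week 16 the CD livers had 784.4, 868.47, 539.67 and 654.42 FPKM and the HFD livers 1001.37, 1161.59, 1006.43 and 1054.38 FPKM. Again the groups did not overlap, but the difference was smaller (log2 0.59, SE 0.14, adjusted p = 0.0363). That call was lost on leaving out any of CD401, CD405, CD407, HFD414, HFD416 or HFD418 (log2 0.46 to 0.64, adjusted p from 0.0501 to 0.109), with no filter on low FPKM (adjusted p = 0.0539) and with median ratio scaling (log2 0.45, adjusted p = 0.0823). At week 12 the difference was 0.50 (adjusted p = 0.0559) and at week 20 it was 0.60 (adjusted p = 0.214), both with overlapping groups. The week 12 difference was called without HFD316 (log2 0.63, adjusted p = 0.0197) and after rescaling to TPM (adjusted p = 0.0443), and that of week 20 in a joint fit of all 48 livers (adjusted p = 0.0280). Week 4 and week 24 gave 0.19 and 0.03. The 6-week mean was 0.51 (SE 0.07, adjusted p = 6.51e-07), with a higher HFD mean in 6 of 6 weeks.

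Rdh16 (Entrez 19683, chr10:127801090-127815839) differed at week 8 alone among the weekly tests, without a test of that week against the others. The CD livers of week 8 had 20.45, 18.18, 14.28 and 13.08 FPKM and the HFD livers 51.45, 54.88, 48.11 and 28.79 FPKM. All HFD livers were higher, by 2.78-fold in the mean (16.5 ± 3.42 against 45.8 ± 11.7 FPKM, log2 1.40, SE 0.21, adjusted p = 0.00824). In the other weeks the difference lay between -0.23 and 0.49 with overlapping groups, and that of week 12 was called without HFD316 (log2 0.73, adjusted p = 0.0472). The 6-week mean was 0.39 (SE 0.11, adjusted p = 0.00483), with a higher HFD mean in 5 of 6 weeks. Rdh16 shares much of its sequence with its neighbours Rdh9 and Rdh16f2, so reads may have been divided among them and its level is uncertain. The same holds for Aldh1a1 and its close copy Aldh1a7.

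Retsat (Entrez 67442, chr6:72598628-72608398) rose with them at week 8. The CD livers had 234.88, 239.84, 200.89 and 100.55 FPKM and the HFD livers 438.42, 403.29, 502.14 and 433.53 FPKM. The groups did not overlap and differed by 2.29-fold (194 ± 64.7 against 444 ± 41.5 FPKM, log2 1.26, SE 0.26, adjusted p = 0.0234), a call that was lost without CD207, HFD211, HFD212 or HFD213 (adjusted p from 0.0560 to 0.0723). The HFD mean was also 2.07-fold the CD mean at week 4 (292 ± 137 against 141 ± 27.9 FPKM). There the groups overlapped and the difference was not called (log2 0.94, SE 0.31, limma adjusted p = 0.261). At week 12 the CD livers had 147.29, 556, 474.42 and 420.09 FPKM and the HFD livers 326.4, 264.53, 177.14 and 295.26 FPKM. Here 3 of the 4 CD livers were above all HFD livers and CD304 was below them, and the difference of -0.46 (adjusted p = 0.484) became -0.89 (adjusted p = 0.0196) without CD304. CD livers were widely spread at week 16 as well, from 207.1 to 740.3 FPKM. The 6-week mean of 0.27 was not called (adjusted p = 0.155). In the same livers, the summed FPKM of 8 pericentral hepatocyte markers at week 8 ran from 4348 to 4978 in CD and from 6525 to 8569 in HFD mice, without overlap, while it overlapped at every other week. Over the 48 livers Cyp2e1 had a median of 5426 FPKM against 6475 FPKM for the pericentral sum, so this sum is mostly that of Cyp2e1. The part of the sum in the week 8 differences was not tested.

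Rdh11 (Entrez 17252, chr12:79175551-79191819) moved the other way, with 1 weekly call, at week 20. Its diet effect of weeks 4, 8 and 12 minus that of weeks 16, 20 and 24 was 0.59 and was not called (limma, adjusted p = 0.565). At week 20 the CD livers had 16.02, 19.9, 10.36 and 10.84 FPKM and the HFD livers 8.2, 4, 5.49 and 3.65 FPKM. All HFD livers were lower, by 2.68-fold (14.3 ± 4.54 against 5.34 ± 2.07 FPKM, log2 -1.28, SE 0.26, adjusted p = 0.0361). At week 24 the CD livers had 7.32, 12.48, 10.23 and 10.24 FPKM and the HFD livers 5.05, 7.2, 5.03 and 5.44 FPKM. The groups were again separate, but the difference of -0.72 was not called (adjusted p = 0.0789) unless HFD614 was left out (adjusted p = 0.0421). The week 20 call was lost without any of CD501, CD502, CD505, CD507, HFD516 or HFD517 (log2 -1.40 to -1.11, adjusted p from 0.0610 to 0.108), with no filter (adjusted p = 0.0701) and after rescaling to TPM (adjusted p = 0.0506). In weeks 4 to 16 the differences lay between -0.46 and 0.40, and 1 HFD liver of week 8 reached 29.49 FPKM, the highest of all 48. The 6-week mean was -0.41 (SE 0.13, adjusted p = 0.0108), with a lower HFD mean in 5 of 6 weeks. In the livers of week 20 the summed FPKM of 8 periportal hepatocyte markers ran from 3955 to 5974 in CD and from 2510 to 3379 in HFD mice, and that of 8 macrophage markers from 111 to 135 and from 172 to 276, both without overlap. The periportal sum also did not overlap at week 16, where Rdh11 differed by -0.11. The macrophage sum also did not overlap at week 12, where Rdh11 differed by 0.40. The part of these sums in the Rdh11 difference was not tested.

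Of the genes of storage and transport, Lrat (Entrez 79235, chr3:82892582-82903974) was low, from 0.49 to 4.64 FPKM. At week 4 the CD livers had 0.49, 1.01, 1.43 and 0.72 FPKM and the HFD livers 1.65, 1.9, 3.79 and 1.62 FPKM. At week 12 the CD livers had 1.73, 1.93, 1.39 and 1.7 FPKM and the HFD livers 2.76, 2.9, 2.23 and 2.06 FPKM. The groups were separate at both weeks, yet neither difference was called (log2 0.74, adjusted p = 0.236 at week 4; log2 0.37, adjusted p = 0.0535 at week 12). At week 16 the difference was 0.45 (adjusted p = 0.232), and 0.66 (adjusted p = 0.00815) without HFD411. The 6-week mean was 0.26 (SE 0.09, adjusted p = 0.0179), and 0.18 (adjusted p = 0.0856) with median ratio scaling. The summed FPKM of 10 stellate cell markers, the cells that store retinyl esters, ran from 66.7 to 148 in CD and from 149 to 204 in HFD livers at week 4, and from 112.3 to 139.8 and 141 to 228 at week 16. These sums did not overlap between diets at the 2 weeks and overlapped at the other 4, and their part in the Lrat values was not tested.

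Rbp4 (Entrez 19662, chr19:38116620-38125321) was the most abundant of the 9 in liver, from 2700 to 4587 FPKM. No week was called, although the groups were separate at week 8 (log2 0.32, adjusted p = 0.0809) and week 24 (log2 0.35, adjusted p = 0.264). Its 6-week mean of 0.16 (SE 0.04, adjusted p = 0.00457) became 0.04 (adjusted p = 0.544) with median ratio scaling. Rarb (Entrez 218772, chr14:16430839-17082331) ran from 0.47 to 1.74 FPKM and passed the filter on low values at weeks 16 and 20. Neither week was called (adjusted p = 0.456 and 0.650), nor was the 6-week mean of 0.10 (adjusted p = 0.149), which was 0.13 (adjusted p = 0.0408) without HFD411. Aldh1a2 (Entrez 19378, chr9:71215789-71296243) stayed between 0 and 0.32 FPKM and was not tested. The diet effect of the early weeks (4, 8 and 12) was also set against that of the late weeks (16, 20 and 24), a contrast in which limma called 0.175% of all liver genes and 0 of the 7 members tested, with 2 of the 7 at an unadjusted p under 0.05.

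**Figure D2:**
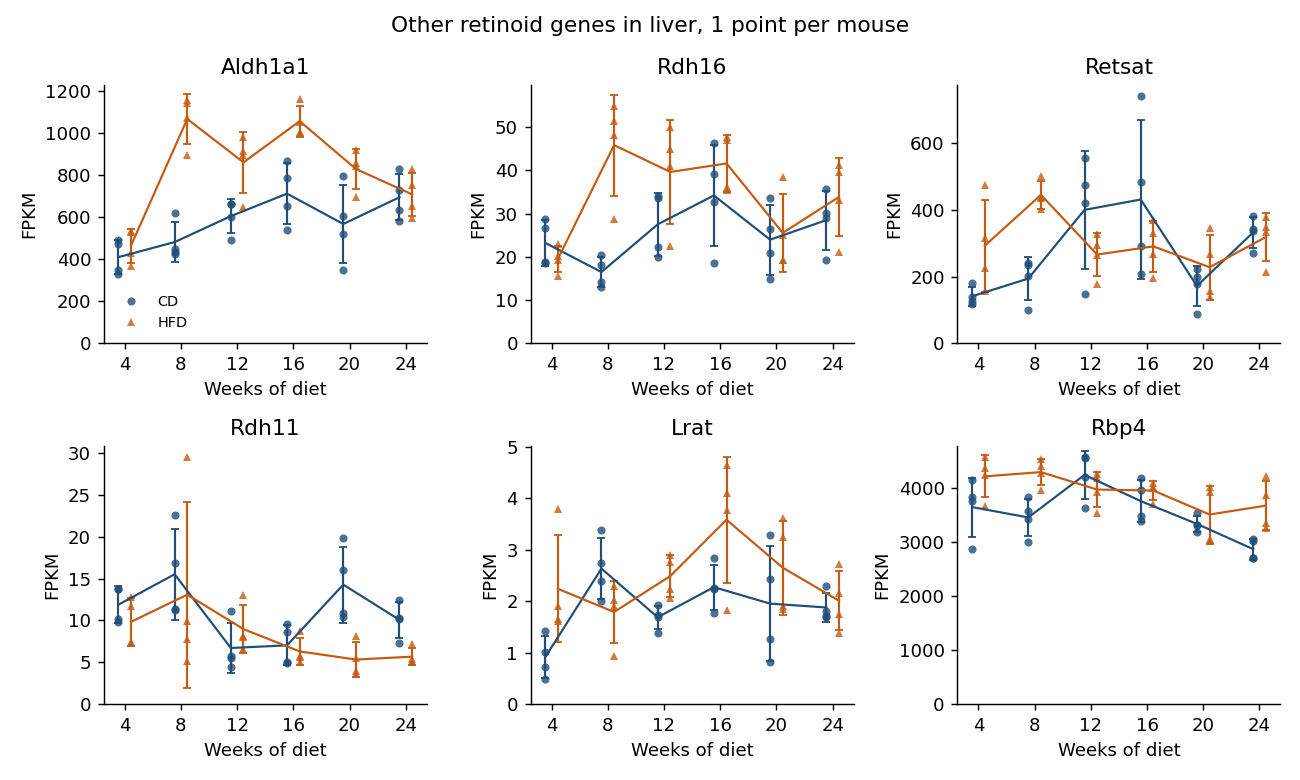
Levels in liver of Aldh1a1, Rdh16, Retsat, Rdh11, Lrat and Rbp4 by weeks of diet, in FPKM, with 1 point per mouse and the mean ± SD of each group of 4 (circles CD, triangles HFD). At week 8 the HFD points of Aldh1a1, Rdh16 and Retsat lie above all CD points, and at weeks 20 and 24 the HFD points of Rdh11 lie below all CD points.

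Within groups, the level of Cyp26a1 in a liver was compared with that of each of the 7 members tested there, as deviations from the mean of their own diet group and week. None of the 7 correlations passed adjustment over the 7 (permutation within groups, 100000 resamples, two-sided, 48 livers). Rarb had Pearson's r = 0.37 (permutation p = 0.0280, adjusted 0.101) and Spearman's rho = 0.30 (permutation p = 0.0754, adjusted 0.264). Lrat had r = 0.30 (permutation p = 0.0288, adjusted 0.101) and rho = 0.33 (permutation p = 0.0317, adjusted 0.222). Without CD205 and CD208, the livers farthest in level from the median of Cyp26a1, r was 0.24 for Rarb and 0.37 for Lrat. The r of the other 5 lay between -0.14 and 0.10. Over 10081 liver genes, those most like Cyp26a1 in these deviations were BC029214 (r = 0.46), Meaf6 (0.46), Ppard (0.46), Zfp972 (0.44) and Bcl3 (0.41), and among the most opposed were Ccdc157 (-0.42) and Rapgef4 (-0.41). These are descriptions over 48 libraries, which share their depth and composition between genes.

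In islets 4 of the 9 genes passed the filter on low values, namely Rbp4, Aldh1a1, Rdh11 and Retsat. Lrat and Rdh16 stayed at or below 0.06 FPKM, Rarb ran from 0.06 to 0.48 FPKM and Aldh1a2 from 0.01 to 0.48 FPKM. At week 4 limma called 0% of 11569 genes, with 854 at an unadjusted p under 0.05, and none of the 4 members, with 1 at an unadjusted p under 0.05. At week 8 it called none of the 4 against a background of 5.27%, with 3 at an unadjusted p under 0.05. At week 12 and at week 16, 2 of 4 were called, against 4.53% and 8.45% of all genes, and at weeks 20 and 24, 1 of 4, against 4.74% and 8.3%. In the 6-week mean 3 of 4 were called, 1 higher and 2 lower, against 38.6% of all genes. Rescaled to TPM 2 were lower and none higher, and with insulin left out of the total 2 were higher and 2 lower.

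Rbp4 fell in HFD islets from week 12 on. At week 4 the CD islets had 76.91, 81.4, 85.88 and 72.8 FPKM and the HFD islets 76.35, 76.72, 77.01 and 80.58 FPKM. At week 8 the CD islets had 76.63, 76.69, 69.12 and 69.06 FPKM and the HFD islets 50.13, 65.11, 45.63 and 71.88 FPKM. The groups overlapped at both weeks (log2 -0.03, adjusted p = 0.927; log2 -0.34, adjusted p = 0.121), and the week 8 difference was called without HFD217 (log2 -0.45, adjusted p = 0.0270) and after rescaling to TPM (log2 -0.47, adjusted p = 0.0428). At week 12 the CD islets had 78.12, 87.27, 77.32 and 70.37 FPKM and the HFD islets 38.57, 41.77, 32.59 and 47.99 FPKM. At week 16 the CD islets had 70.38, 58.74, 62.6 and 65.68 FPKM and the HFD islets 13.79, 15.46, 18.2 and 28.7 FPKM. All HFD islets were lower, by 1.95-fold at week 12 (78.3 ± 6.94 against 40.2 ± 6.42 FPKM, log2 -0.95, SE 0.11, adjusted p = 1.29e-06) and by 3.38-fold at week 16 (64.4 ± 4.92 against 19.0 ± 6.69 FPKM, log2 -1.76, SE 0.21, adjusted p = 0.00265).

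At week 20 the CD islets had 79.81, 69.79, 56.38 and 62.24 FPKM of Rbp4 and the HFD islets 41.27, 21.89, 13.89 and 16.93 FPKM. At week 24 the CD islets had 62.77, 55.62, 52.59 and 65.67 FPKM and the HFD islets 8.14, 5.98, 10.12 and 18.01 FPKM. The groups stayed apart, with a 2.85-fold difference at week 20 (log2 -1.58, SE 0.30, adjusted p = 0.0336) and a 5.60-fold difference at week 24 (log2 -2.48, SE 0.30, adjusted p = 0.00543). The week 20 call was lost without any of CD501, CD502, CD505, CD507, HFD517 or HFD518 (log2 -1.66 to -1.38, adjusted p from 0.0617 to 0.107). The 6-week mean was -1.19 (SE 0.09, adjusted p = 4.59e-13), with a lower HFD mean in 6 of 6 weeks. The diet difference was larger in the late weeks, by 1.50 on the log2 scale (SE 0.18, adjusted p = 7.15e-07), in a contrast that called 3.16% of islet genes. Every HFD islet library lay below every CD library of its week in 4 of the 6 weeks, a separation that 1.78% of the 12378 genes tested showed in at least 4 weeks.

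Genes of the minor islet endocrine cells were lower in the same HFD libraries. Sst, which encodes the somatostatin of delta cells, had 2889.94, 2269.28, 2258.55 and 2662.02 FPKM in CD islets and 321.42, 338.54, 360.82 and 615.38 FPKM in HFD islets at week 24. Its difference ran through -0.22, -0.71, -1.21, -2.01, -2.16 and -2.66 over the 6 weeks and was called from week 8 on, and that of Gcg, the glucagon gene of alpha cells, through -0.15, -0.58, -1.41, -2.25, -2.07 and -2.93, also called from week 8 on. The summed FPKM of 4 delta cell markers, with Rbp4 left out, did not overlap between diets at any week, with means of 4494 in CD and 3855 in HFD islets at week 4 and 2526 and 410 at week 24. That of 5 alpha cell markers, with Ttr left out, had means of 14661 and 13256 at week 4 and 10291 and 1412 at week 24. Over the 48 islet libraries Sst had a median of 2677 FPKM against 2685 FPKM for the delta sum. Gcg had 9308 FPKM against 9383 FPKM for the alpha sum, so these sums are nearly those of Sst and Gcg. The part of delta and alpha cells in the Rbp4 difference was not tested across diets.

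Within groups, Rbp4 moved with those markers from mouse to mouse. The comparison with marker lists was added after the values had been seen and covered 16 pairs in 48 islet libraries (permutation within groups, 100000 resamples, two-sided). Pearson's r was 0.92 with the delta list and Spearman's rho 0.85, each at the smallest permutation p that was possible, 1e-05 (adjusted 8e-05 for r). With the alpha list r was 0.86 and rho 0.80, at the same smallest permutation p. As sums of FPKM, the delta list was nearly all Sst and the alpha list nearly all Gcg. With the pancreatic polypeptide list r was 0.63 (permutation p = 0.00571, adjusted 0.0228) and rho 0.45 (permutation p = 0.0142, adjusted 0.0567). Without HFD611 and HFD614, the islets farthest in level from the median of Rbp4, r was 0.95, 0.85 and 0.73 for the 3 lists. They were chosen by level, and HFD511, with a larger deviation of Rbp4 from its group (0.91), stayed in. Dependence on the mice with the largest deviations was thus not tested. With beta, acinar, duct, mesenchymal and endothelial lists r lay between -0.31 and 0.15 and did not pass adjustment.

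**Figure D3:**
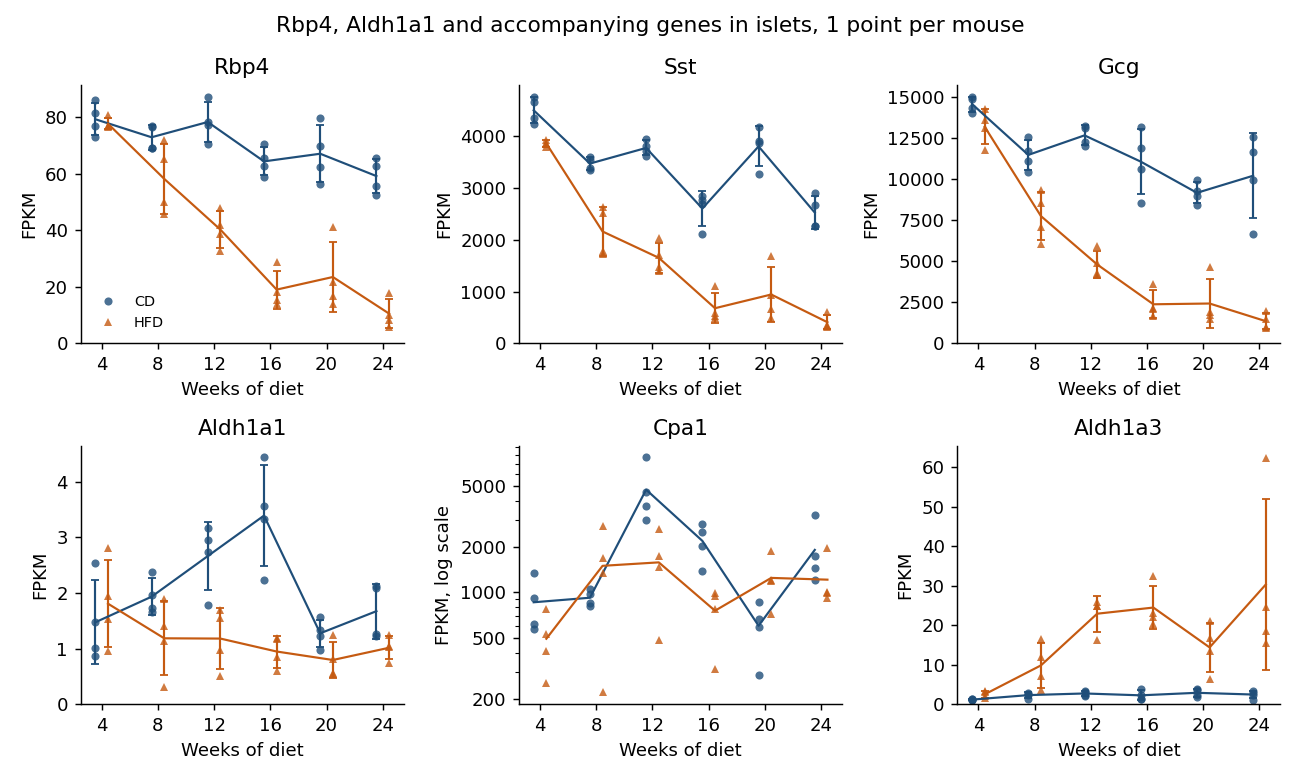
Levels in islets of Rbp4, Sst, Gcg, Aldh1a1, Cpa1 and Aldh1a3 by weeks of diet, in FPKM (Cpa1 on a log axis), with 1 point per mouse and lines through the group means of 4 mice, with ± SD bars except on the log axis (circles CD, triangles HFD). Rbp4 of HFD islets went from 77.7 FPKM at week 4 to 10.6 FPKM at week 24, beside Sst and Gcg, while the HFD points of Aldh1a3 lie above all CD points of their week.

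Aldh1a1 was scarce in islets, from 0.31 to 4.44 FPKM, and was called lower in HFD islets at weeks 12 and 16. At week 12 the CD islets had 3.17, 2.74, 2.96 and 1.78 FPKM and the HFD islets 1.7, 1.55, 0.5 and 0.97 FPKM. At week 16 the CD islets had 4.44, 2.23, 3.57 and 3.32 FPKM and the HFD islets 1.17, 0.59, 1.19 and 0.84 FPKM. The groups did not overlap at either week, and the difference was -0.77 at week 12 (SE 0.19, adjusted p = 0.0430) and -1.16 at week 16 (SE 0.15, adjusted p = 0.000553), a 3.58-fold lower mean. The week 12 call was lost without any of CD304, CD306, CD307 or HFD318 (adjusted p from 0.0815 to 0.130), with a pseudocount of 0.1 (adjusted p = 0.125), no filter (adjusted p = 0.0638) and median ratio scaling (adjusted p = 0.0753). The 6-week mean was -0.49 (SE 0.09, adjusted p = 1.68e-05).

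The acinar marker sum, from exocrine cells that adhere to picked islets, did not overlap between diets at these same 2 weeks. It ran from 63107 to 151803 FPKM in CD and from 9684 to 45244 in HFD islets at week 12. At week 16 it ran from 36024 to 66300 and from 5856 to 18751, and it overlapped at the other 4 weeks. Its HFD mean was below its CD mean at week 4 (10779 against 21052) and week 24 (21753 against 41477). It was above the CD mean at week 8 (27633 against 21872) and week 20 (22280 against 13158.5), where Aldh1a1 differed by -0.48 and -0.35. Within groups Aldh1a1 had r = 0.69 with it (permutation p = 6e-05, adjusted 0.0003) and rho = 0.60 (permutation p = 0.00019, adjusted 0.0010), and r = 0.72 without CD401 and CD405. With the beta list r was -0.42 (permutation p = 0.0175, adjusted 0.0467) and with the alpha list 0.35 (permutation p = 0.0117, adjusted 0.0375), and the rho of neither passed adjustment (adjusted p = 0.0592 and 0.0638). The part of acinar RNA in the diet difference of Aldh1a1 was not tested.

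Rdh11 in islets ran from 5.39 to 9.37 FPKM. No week was called, and the 6-week mean of 0.11 (SE 0.04, adjusted p = 0.0262) became 0.01 (adjusted p = 0.835) after rescaling to TPM. Retsat ran from 3.67 to 6.97 FPKM with a 6-week mean difference of 0.03 (adjusted p = 0.520), which was 0.10 (adjusted p = 0.0458) with insulin left out of the total.

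**Figure D4:**
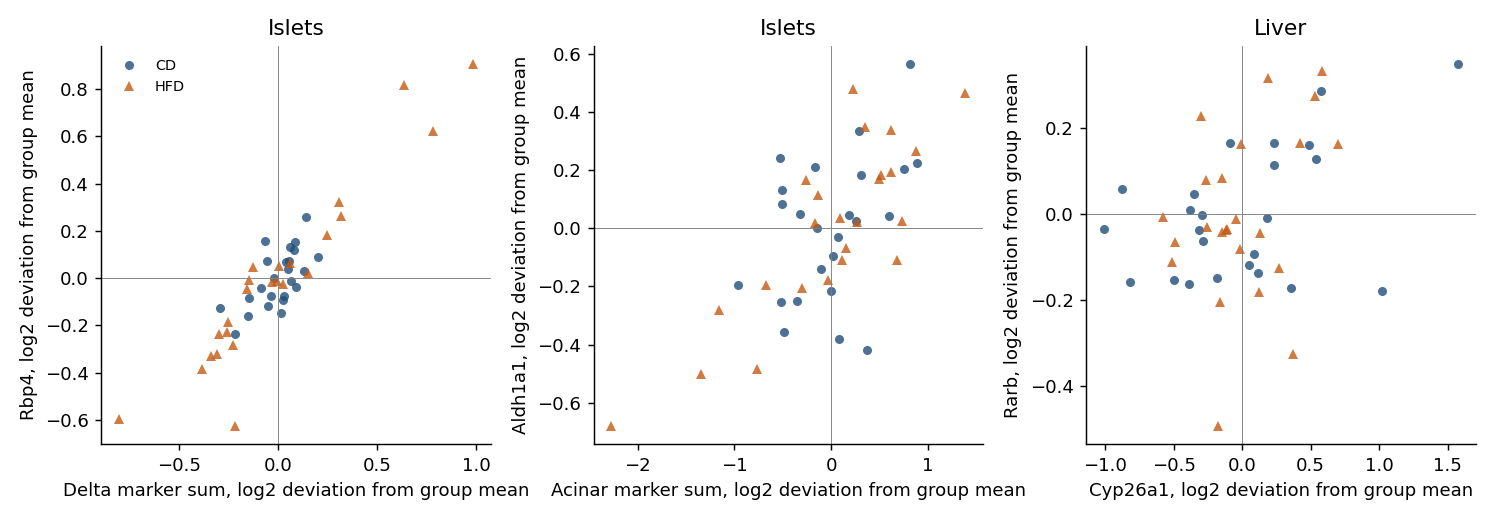
Deviation of each library from the mean of its diet and week, on the log2(FPKM + 1) scale, for Rbp4 against the delta marker sum in islets (left), Aldh1a1 against the acinar marker sum in islets (middle) and Rarb against Cyp26a1 in liver (right), with 1 point per mouse (circles CD, triangles HFD). Rbp4 follows the delta sum (r = 0.92) more tightly than Aldh1a1 follows the acinar sum (r = 0.69) or Rarb follows Cyp26a1 (r = 0.37).

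The diet effect differed between liver and islets of the same mice for 3 of the 4 members tested in both tissues, in a fit that called 43.9% of all genes. The 6-week mean effect on Rbp4 was 0.16 in liver and -1.19 in islets, a difference of 1.34 (SE 0.10, adjusted p = 4.19e-19). That on Aldh1a1 was 0.51 in liver and -0.49 in islets, a difference of 1.00 (SE 0.11, adjusted p = 2.76e-11). That on Rdh11 was -0.41 in liver and 0.11 in islets, a difference of -0.51 (SE 0.14, adjusted p = 0.00169). Retsat gave a difference of 0.24 (SE 0.16, adjusted p = 0.230).

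**Figure D5:**
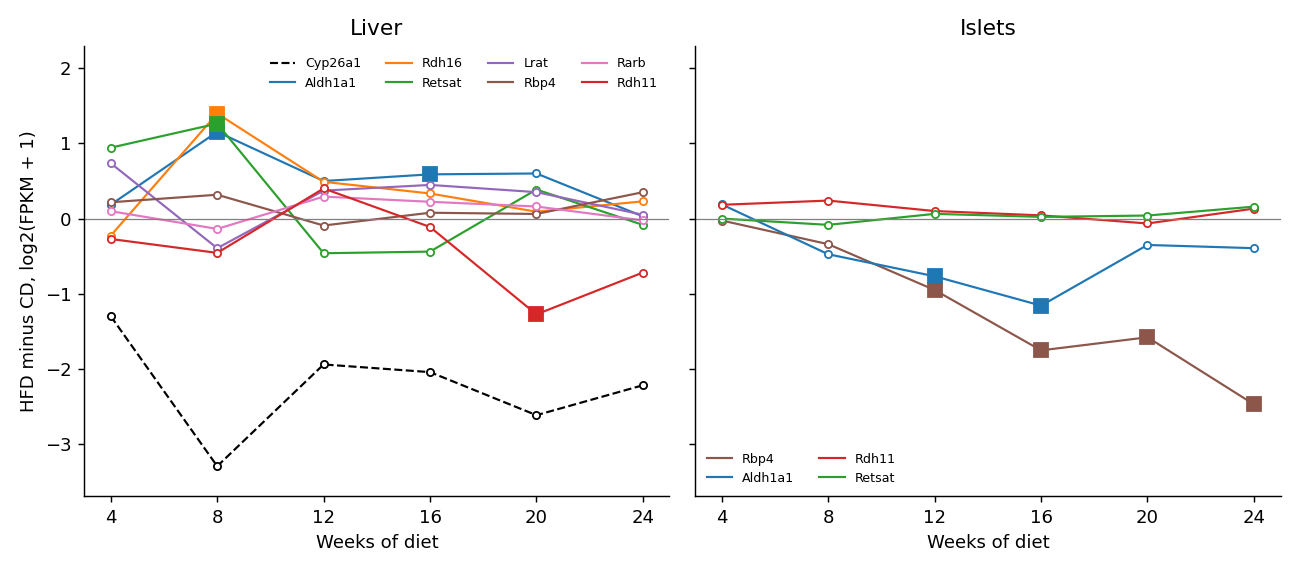
Difference between diets (HFD minus CD, log2(FPKM + 1)) by weeks of diet for the members measured in liver (left) and islets (right), with filled squares where the weekly limma test was passed and open circles elsewhere. Cyp26a1, dashed and not tested, lies between -3.30 and -1.30, Rdh16, Retsat and Aldh1a1 peak at week 8 in liver, and Rbp4 in islets reaches -2.48 at week 24.

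Of 45 other genes of retinoid handling with values, 33 were tested in liver in the 6-week mean, of which 10 were higher, 3 lower and 20 not called, with a median difference of 0.08 as over all genes. The share called was 39.4%, near the 42.6% of all genes. With median ratio scaling 6 were higher and 10 lower, and the balance of directions thus turned with the scaling. In islets 26 were tested, of which 4 were higher, 5 lower and 17 not called, with a median of -0.02 against -0.01 over all genes. The share called was 34.6% against 38.6% of all genes. After rescaling to TPM these were 2 higher and 11 lower. The single genes named next with a call in the 6-week mean kept it under each of the other scalings, filters and pseudocounts and on leaving out each mouse in turn, except Rxrg.

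Of the other oxidoreductases, 14 were tested in liver and 5 were higher and 2 lower in the 6-week mean, a share of 50% against 42.6% of all genes. Rdh9, a retinol dehydrogenase next to Rdh16, was higher in HFD liver by 0.83 (adjusted p = 2.85e-07), and passed at weeks 8 and 20. At week 8 it had 15.76, 12.86, 19.48 and 14.24 FPKM in CD and 43.69, 60.35, 62.55 and 30.42 FPKM in HFD livers, a 3.16-fold separation beside that of Rdh16. Rdh16f2 of the same cluster was lower by 0.47 on the log2 scale (-0.47, adjusted p = 0.000149), so the neighbours did not move one way. Dhrs4, which reduces retinal, was higher by 0.33 (adjusted p = 1.23e-06). Dhrs3, another retinal reductase and a gene that retinoic acid switches on, was not called (-0.13, adjusted p = 0.146).

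Cyp26b1, the sister enzyme of Cyp26a1, had a median of 1.43 FPKM in CD and 0.65 FPKM in HFD livers and a 6-week mean difference of -0.46 (adjusted p = 0.0217). It was not called at any of the 3 weeks at which it passed the filter, and its groups overlapped at 5 of 6 weeks. Among the receptors 5 were tested in liver and 1 was called in the 6-week mean, 20% against 42.6% of all genes. Rxrg was higher by 0.17 (adjusted p = 0.0398), a call that was lost with median ratio scaling (0.08, adjusted p = 0.306), with no filter on low FPKM and on leaving out any of 18 of the 48 mice. Rara (0.12, adjusted p = 0.166), Rarg (-0.02, adjusted p = 0.811), Rxra (0.07, adjusted p = 0.363) and Rxrb (0.04, adjusted p = 0.383) were not called. Of the genes of binding and transport 3 were tested in liver and in the 6-week mean limma called none, nor did any have an unadjusted p under 0.05 there. No single week had a call in these 3 either, though all 3 had an unadjusted p under 0.05 at week 12 and 1 at week 16. Stra6, a receptor for the plasma carrier, was listed at 0 in 46 of 48 livers. Stra6l, which was among the 3 tested, had a median of 35.3 FPKM in CD and 39.1 FPKM in HFD livers.

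Tgm2, a transglutaminase that retinoic acid switches on, was higher in HFD liver by 0.70 (adjusted p = 3.58e-08) and passed at weeks 12, 16 and 20. Of the 5 genes of that kind tested in liver besides the members, 1 was higher, Tgm2, and 1 lower, Cyp26b1, which is 40% against 42.6% of all genes. Lpl, a lipase that also acts on retinyl esters carried in lipoproteins, was higher by 0.62 (adjusted p = 2.07e-05) and passed at weeks 12, 16 and 24. In the same livers the macrophage sum did not overlap between diets at weeks 12 and 20, and the stellate sum at weeks 4 and 16. That of 7 mesenchymal markers, a list that shares Dcn, Pdgfrb and Des with the stellate list, did not overlap at weeks 4, 12 and 16. Each sum was higher in HFD mice at those weeks. At week 4 the Lpl difference was 0.03, and neither Lpl nor Tgm2 passed. The part of these sums in the Tgm2 and Lpl differences was not tested. In islets both went the other way, Tgm2 by -0.55 (adjusted p = 3.24e-06) and Lpl by -0.93 (adjusted p = 3.26e-08).

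Aldh1a3, a retinal dehydrogenase of the family of Aldh1a1, rose in HFD islets. Its median was 2.35 FPKM in CD and 16.7 FPKM in HFD islets, and its groups did not overlap at any of the 6 weeks. The share of all islet genes with such a separation toward higher values was not counted, so nothing is read from it. At week 16 it had 1.38, 2.45, 1.21 and 3.98 FPKM in CD and 32.46, 22.05, 20.2 and 23.17 FPKM in HFD islets. The 6-week mean difference was 2.14 (SE 0.15, adjusted p = 1.92e-14). Aldh1a3 was called at weeks 12, 16, 20 and 24, but not at weeks 4 and 8 (limma, adjusted p = 0.550 and 0.0853). Its direction was opposite to that of Aldh1a1 in the same libraries, and no difference between the 2 genes was tested. Ttr, which carries thyroid hormone and binds the protein of Rbp4 in plasma, was lower in HFD islets by 0.59 on the log2 scale (-0.59, adjusted p = 4.31e-08). Ttr is also a marker of alpha cells, whose summed markers were lower in the same HFD islets, and their part in its difference was not tested. Rdh16f2 was lower too (-0.30, adjusted p = 0.000292). Limma called none of the 4 receptors tested in islets, with 2 at an unadjusted p under 0.05.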

How the data were processed

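RNA of islets and liver was sequenced on the BGISEQ-500 after poly(A) selection and random priming. The authors deposited 1 FPKM value per gene and library, with gene names and positions. The submitters' processing notes name HISAT2 2.0.4, Bowtie2 2.2.5, RSEM 1.1.12, DESeq2 and the build GRCm38.p5 without their order. Columns of the authors' own comparisons (log2 ratios, p-values and q-values) were not used. Read counts and library depth are not given in the sources used here, so no counting interval could be made, and FPKM from estimated counts makes low values imprecise.

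Diet groups of 4 mice were compared within each tissue and week on log2(FPKM + 1) with limma 3.58.1 in R 4.3.3 (trend and robust variances), over genes at 1 FPKM or more in at least 4 libraries, with Benjamini-Hochberg adjustment over all genes tested. The 6-week mean and the early against late contrast came from fits of the 48 libraries of a tissue, and the tissue difference from all 96. Each library is a separate mouse. Islet and liver libraries carry the same mouse numbers and come from the same animals. Their within-group deviations correlated with a median of 0.17 over 48 mice (-0.11 to 0.33, 34 mice over 0.1, 9117 genes). Correlations used group-centred values and 100000 permutations within groups (numpy 2.4.6). The mice left out of them were chosen by level and not by deviation from their group, so mice with large deviations could stay in. The script was tested on simulated data. Marker sums left Rbp4 and Ttr out of the islet lists. They are plain sums of FPKM, so the most abundant genes of a list weigh most.

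The 9 members and all gene lists were chosen with earlier results of these data known. All 9 members are named. Of the other retinoid genes, those named passed the test in at least 3 weeks of a tissue, or in its 6-week mean with a difference of at least 0.3, beside the receptors, Cyp26b1, Dhrs3 and Stra6. The 5 genes most like and the 3 least like Cyp26a1 were chosen too. Some of the genes that these rules chose are not reported here. Cyp2c29, Kcp, Sst, Gcg, Stra6l and Cyp2e1 were named after their values were seen. Alternatives were another pseudocount, no filter, median ratio scaling, TPM, insulin left out of the islet total, plain variances, a joint fit, a fold limit, within-mouse pairing and each mouse left out.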

Additional observations from a re-analysis of the deposited data

Results flagged for a closer look

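Among 140 groups of 4 libraries examined, 5 held 1 library far from the other 3, by a ratio of its gap to the whole range above Dixon's critical value, which chance alone would exceed in about 1 of 20 groups. They were Cyp26a1 in HFD liver at week 16 (ratio 0.865, HFD418 at 1.84 FPKM against 0.58 to 0.71), Aldh1a1 in CD liver at week 8 (0.849, CD205 at 620 against 424 to 449 FPKM), Rbp4 in HFD islets at week 4 (0.840, HFD118 at 80.6 against 76.4 to 77.0 FPKM), Lrat in HFD liver at week 4 (0.832, HFD114 at 3.79 against 1.62 to 1.9 FPKM) and Retsat in CD islets at week 12 (0.900, CD306 at 5.2 against 4.46 to 4.53 FPKM).

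The diet effect differed between liver and islets for Aldh1a1 by 1.00, for Rbp4 by 1.34 and for Rdh11 by -0.51 on the log2 scale (limma, 6-week mean), and between the early and late weeks in islets for Rbp4 by 1.50.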

How the results depend on the processing

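Results were recomputed under each alternative and without each mouse. Of the values that rest on another setting, 554 kept their side of the threshold, 5 gained a call, 10 lost one and 2 counts moved. Some small differences without a call changed sign among the settings, such as Rbp4 in liver at week 16 (log2 0.08, lowest -0.06). Retsat in islets at week 12 (log2 0.06, lowest -0.11) did so too. On leaving out a mouse 1947 stayed on their side of the threshold, 11 gained and 26 lost a call. With no filter on low FPKM the number of liver member and week pairs called was 3 in place of 5, and with median ratio scaling the number of liver members called in the 6-week mean was 3 in place of 5, without Rbp4 and Lrat. On leaving out a mouse, liver pairs called ran from 4 to 7, islet pairs from 5 to 8 (6 with all mice), members called in the mean from 5 to 6 in liver and from 3 to 3 in islets, and members with a tissue difference from 3 to 3. With the replicate block (within-mouse pairing of liver and islets) the number of members with a tissue difference was 3 as well, and the pairing changed no call. Median ratio scaling moved the median of all liver genes by -0.11 (week 4), -0.13 (week 12) and -0.12 (week 16), and turned the split of week 12 liver calls from 938 higher and 121 lower to 553 and 523. In islets TPM moved it by -0.11 (week 8), -0.18 (week 12) and -0.14 (week 16), and leaving out insulin by 0.25 (week 12) and 0.18 (week 16), between which the week 12 difference of Rbp4 ran from -1.16 to -0.67. The cause of these changes was not tested. Without depth, differences in genes under 1 FPKM, which cover Cyp26a1 in islets and Aldh1a2 in both tissues, were not detectable here.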

Other observations

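Mouse CD205, whose week 8 liver had the highest Cyp26a1 level (61.3 FPKM), also had the highest CD level of its week for Cyp26b1 (5.49 FPKM), Rarb (1.74 FPKM) and Dhrs3 (158 FPKM), a set of genes looked at after that level had been seen. Rdh7, another gene of the Rdh16 cluster, was far more abundant than Rdh16 in liver, with a CD median of 840 FPKM and an HFD median of 803 FPKM, and its 6-week mean difference was not called.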
